A study of Mus musculus with 32 samples.

Results

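The regions described here are stretches of open chromatin in mouse blood stem and progenitor cells that lie nearest to 10 genes of early lymphoid development: Ikzf1, Ikzf2, Ikzf3, Bcl11a, Bcl11b, Ebf1, Pax5, Igll1, Rag1 and Rag2. A region was a member if one of these was its nearest protein-coding GRCm38 gene model within 50 kb. In lists of equal length, 18 of the 23554 regions tested were members. In longer lists from 13 of the 16 libraries, 76 of 70009 were.

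Open chromatin was mapped by ATAC-seq, in which a transposase inserts into accessible DNA, in lineage-negative cKit+ Sca1+ cells of bone marrow (HSPCs). The cells sorted were the wild-type C57BL/6J donor cells (CD45.1+/2+) of a mixed graft in lethally irradiated CD45.2 recipients. AF9-experienced mice received 800000 of these wild-type marrow cells with 200000 CD45.1 cells homozygous for hMLL-AF9, a leukaemia-driving fusion gene switched on by doxycycline, and for rtTA, its inducer. Naive mice received 800000 wild-type cells with 200000 hMLL-AF9-null cells homozygous for rtTA only. From 6 to 8 weeks after transplantation, the mice had 5 weeks of doxycycline induction and 4 weeks of withdrawal, which models leukaemia followed by remission. They were then injected with LPS, a bacterial lipopolysaccharide, or with PBS, and killed 24 hours later. The sorted cells were wild type and did not carry the fusion, and the age of the mice is not given in the sources used here. There were 5 AF9-experienced LPS, 3 naive LPS, 4 AF9-experienced PBS and 4 naive PBS biological replicates, each with 1 peak list. The comparisons ask what LPS does to these regions in wild-type HSPCs, and whether earlier exposure to MLL-AF9 cells changes them or their response.

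Ikaros (Ikzf1), Helios (Ikzf2) and Aiolos (Ikzf3) are zinc-finger transcription factors that bind DNA with the nucleosome remodelling and deacetylase complex NuRD, and Ikaros is required for lymphoid development. Ebf1 and Pax5 specify and fix the B cell fate, Bcl11a is a zinc-finger repressor needed for B cell development, and Bcl11b is its counterpart in T cell commitment. Rag1 and Rag2 form the recombinase that assembles antigen receptor genes, and Igll1 encodes the lambda5 chain of the pre-B cell receptor. Some multipotent progenitors carry open chromatin at lymphoid genes before those genes are strongly expressed, which is known as lymphoid priming.

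The lists held 19448 to 88816 peaks, and 17 to 107 of them belonged to the 10 genes. Peaks of these genes made up 0.103% ± 0.009 of the autosomal peaks in the 5 AF9-experienced LPS libraries (mean ± SD) and 0.106% ± 0.0138 in the 3 naive LPS libraries. In the 4 AF9-experienced PBS and the 4 naive PBS libraries they made up 0.111% ± 0.0186 and 0.114% ± 0.0173, so the groups overlapped. The lowest PBS shares, 0.0833% in AF9-experienced PBS 1 and 0.089% in naive PBS 1, came from very short lists. Outside the 3 shortest lists the shares were 0.0906% to 0.122% after LPS and 0.117% to 0.127% after PBS, meeting through naive LPS 1 alone. Strength is given as the percentile rank of a region's peak within its own list: 100 is the strongest, and 0 means no peak among the 19100 strongest of the library, or among the 59600 strongest in the longer lists. The 3 shortest full lists were AF9-experienced PBS 1, naive PBS 1 and naive LPS 3, and these are absent from the longer lists. Outside them, the median fold enrichment over background, the authors' value, was 9.16 to 13.6 in 7 LPS libraries and 13.9 to 19.4 in 6 PBS libraries. Treatment and this library property therefore did not overlap in the longer lists and cannot be told apart there. Peaks on the Y chromosome were called in 5 of 8 LPS and 1 of 8 PBS libraries. Of 8 HSPC markers, 7 had a tested region. The mature B cell markers Cd22, Fcer2a and Ms4a1 and the mature T cell markers Cd3g, Cd4, Cd8a and Cd8b1 had no peak linked to them among the 19100 strongest of any library. The 1 tested region of the mature B list was not called after LPS. Of the 6 tested regions of the mature T list 1 was lower, at Lat, and their summed rank was 129.6 to 247 in AF9-experienced LPS, 137.3 to 153.5 in naive LPS, 182.1 to 223.9 in AF9-experienced PBS and 176 to 245.2 in naive PBS. In the longer lists 7 of 17 mature T regions were lower after LPS, at Cd28, Cd3e, Cd5 and Lat, and 2 higher, at Lat (limma). That is 41.2% and 11.8%, where 11.7% of all regions were lower and 10.2% higher. All 6 mature B genes had a peak there, and 1 of their 8 regions was lower. Of 87 HSPC marker regions, 13 were lower and 5 higher (14.9% and 5.75%).

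Transcription start sites of the 10 genes differed widely in accessibility. RefSeq promoter windows of GRCm38.p6, 250 bases before to 50 after a start, were matched for 8 of the 10 genes. Of 31396 such windows on autosomes, 28.7% overlapped a peak in all 16 full lists and 48.0% in none. The windows at the upstream Ikzf1 start and the Bcl11a start overlapped a peak in 14 lists each, and the other Ikzf1 window in 13. Those at the Rag2, Igll1 and Bcl11b starts overlapped a peak in none. A tested region of the longer lists over the upstream end of the Bcl11b gene model (chr12:108003823-108004415) lies outside that window, so the absence holds for the window alone. The upstream end of the Bcl11a gene model also lies outside the Bcl11a window, in a region with a peak in all 16 equal-length lists (chr11:24076046-24078149). The Pax5 window overlapped one in 7 lists, namely 1 of 5 AF9-experienced LPS, 0 of 3 naive LPS, 3 of 4 AF9-experienced PBS and 3 of 4 naive PBS lists. The Rag1 window overlapped one in 5 lists, namely 0 of 5 AF9-experienced LPS, 1 of 3 naive LPS, 2 of 4 AF9-experienced PBS and 2 of 4 naive PBS lists. For Ebf1, the upstream start had no peak in any list and the other start had 1, in AF9-experienced LPS. Full lists differ in length, so these counts were not compared between groups. Below are the windows with a peak at Ikzf1 (chr11:11685675-11685974, plus strand), Bcl11a (chr11:24080445-24080744, plus strand), Rag1 (chr2:101649483-101649782, minus strand) and Iftap (chr2:101628982-101629281, minus strand), whose start lies inside the region linked to Rag2, and the one without a peak at Igll1 (chr16:16863936-16864235, minus strand). Each reads 5′ to 3′ along its gene, and capitals mark matches on either strand to an ETS (GGAAGT), RUNX (TGTGGT) or Ikaros-type (TGGGAA) motif.
Ikzf1: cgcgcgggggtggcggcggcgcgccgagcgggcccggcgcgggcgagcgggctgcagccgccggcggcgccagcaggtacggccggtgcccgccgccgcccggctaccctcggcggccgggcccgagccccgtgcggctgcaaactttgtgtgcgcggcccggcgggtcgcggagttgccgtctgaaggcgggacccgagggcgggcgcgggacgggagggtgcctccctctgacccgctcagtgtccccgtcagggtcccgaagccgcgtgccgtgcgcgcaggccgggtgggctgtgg
Bcl11a: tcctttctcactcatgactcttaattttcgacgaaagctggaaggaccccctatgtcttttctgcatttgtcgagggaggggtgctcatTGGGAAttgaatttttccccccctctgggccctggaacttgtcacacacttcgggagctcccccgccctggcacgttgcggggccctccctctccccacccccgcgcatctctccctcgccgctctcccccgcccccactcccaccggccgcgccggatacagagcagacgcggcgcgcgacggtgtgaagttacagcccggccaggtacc
Rag1: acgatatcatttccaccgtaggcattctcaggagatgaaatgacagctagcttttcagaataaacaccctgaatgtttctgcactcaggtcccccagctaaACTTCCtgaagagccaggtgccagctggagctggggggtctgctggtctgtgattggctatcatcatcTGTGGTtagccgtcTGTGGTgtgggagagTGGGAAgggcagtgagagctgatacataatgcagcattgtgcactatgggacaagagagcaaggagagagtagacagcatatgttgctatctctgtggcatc
Iftap: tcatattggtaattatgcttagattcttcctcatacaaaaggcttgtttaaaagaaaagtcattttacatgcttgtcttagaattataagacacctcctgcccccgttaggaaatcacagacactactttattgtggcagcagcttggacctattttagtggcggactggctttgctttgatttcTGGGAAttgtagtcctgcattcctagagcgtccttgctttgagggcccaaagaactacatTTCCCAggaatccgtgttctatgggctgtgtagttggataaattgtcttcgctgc
Igll1: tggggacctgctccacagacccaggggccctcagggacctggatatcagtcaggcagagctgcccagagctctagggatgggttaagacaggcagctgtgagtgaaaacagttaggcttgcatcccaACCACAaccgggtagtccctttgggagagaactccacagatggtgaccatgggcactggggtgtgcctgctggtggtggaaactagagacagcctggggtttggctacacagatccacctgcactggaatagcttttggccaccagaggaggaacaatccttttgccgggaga
The Ikzf1 window is 81.3% G and C, against a median of 53% over all windows, and holds none of the 3 motifs. The Rag1 window holds 2 RUNX, 1 ETS and 1 Ikaros-type match, the Iftap window 2 Ikaros-type matches, the Bcl11a window 1 Ikaros-type match and the Igll1 window 1 RUNX match. Among all windows, 23.9% held the ETS, 16.7% the RUNX and 25.3% the Ikaros-type letters. The first bases of GGAAGT are the last of TGGGAA, so these 2 motifs can share bases, though they do not in these windows. The other 3 motifs were searched on both strands: the E-box CANNTG (72.2% of all windows), the AP-1 motif TGANTCA (7.84%) and the GATA motif NGATAA (25.2%). The E-box was found 4 times in the Rag1, 3 times in the Igll1 and 1 time in the Bcl11a window, the GATA motif 1 time in the Iftap window, and the AP-1 motif in none of the 5. A match of letters is a description and not a bound site.

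After LPS, 6 of the 18 regions changed in rank in the mean of the naive and AF9-experienced differences, 5 of them higher and 1 lower (limma, Benjamini-Hochberg adjusted p under 0.05). They make up 33.3% of the members, where 12.6% of all tested regions were called, 7.17% higher and 5.45% lower. Higher were 2 regions of Ikzf2 and 1 each of Ikzf1, Igll1 and Rag2, and lower was 1 region of Bcl11a. Every LPS library was above every PBS library in 1 member and below in 1, against 1.9% and 0.807% of all regions. Higher and lower here mean the place of a region within its list, which does not fix its accessibility. In bulk libraries, a region open in more of the cells and a region more open per cell cannot be told apart. At an unadjusted p under 0.05 there were also 6 of 18 members, against 26.5% of all regions. The median difference was 2.51 percentile points over the 18 members and −0.11 over all regions. Within naive mice 3 members were called, 2 higher and 1 lower, where 3.22% of all regions were called (2.0% higher, 1.22% lower). Within AF9-experienced mice there were again 2 higher and 1 lower, where 5.18% were called (3.44% higher, 1.74% lower). With the number of Y-chromosome peaks as a covariate, 3 members were higher and 1 lower in the mean of both differences, and the Ikzf1 and Rag2 calls were lost (limma adjusted p = 0.163 for each). Ikzf3, Bcl11b and Rag1 had no region in lists of this length, and the 2 of Ebf1 appeared in too few libraries to be tested.

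**Figure D1:**
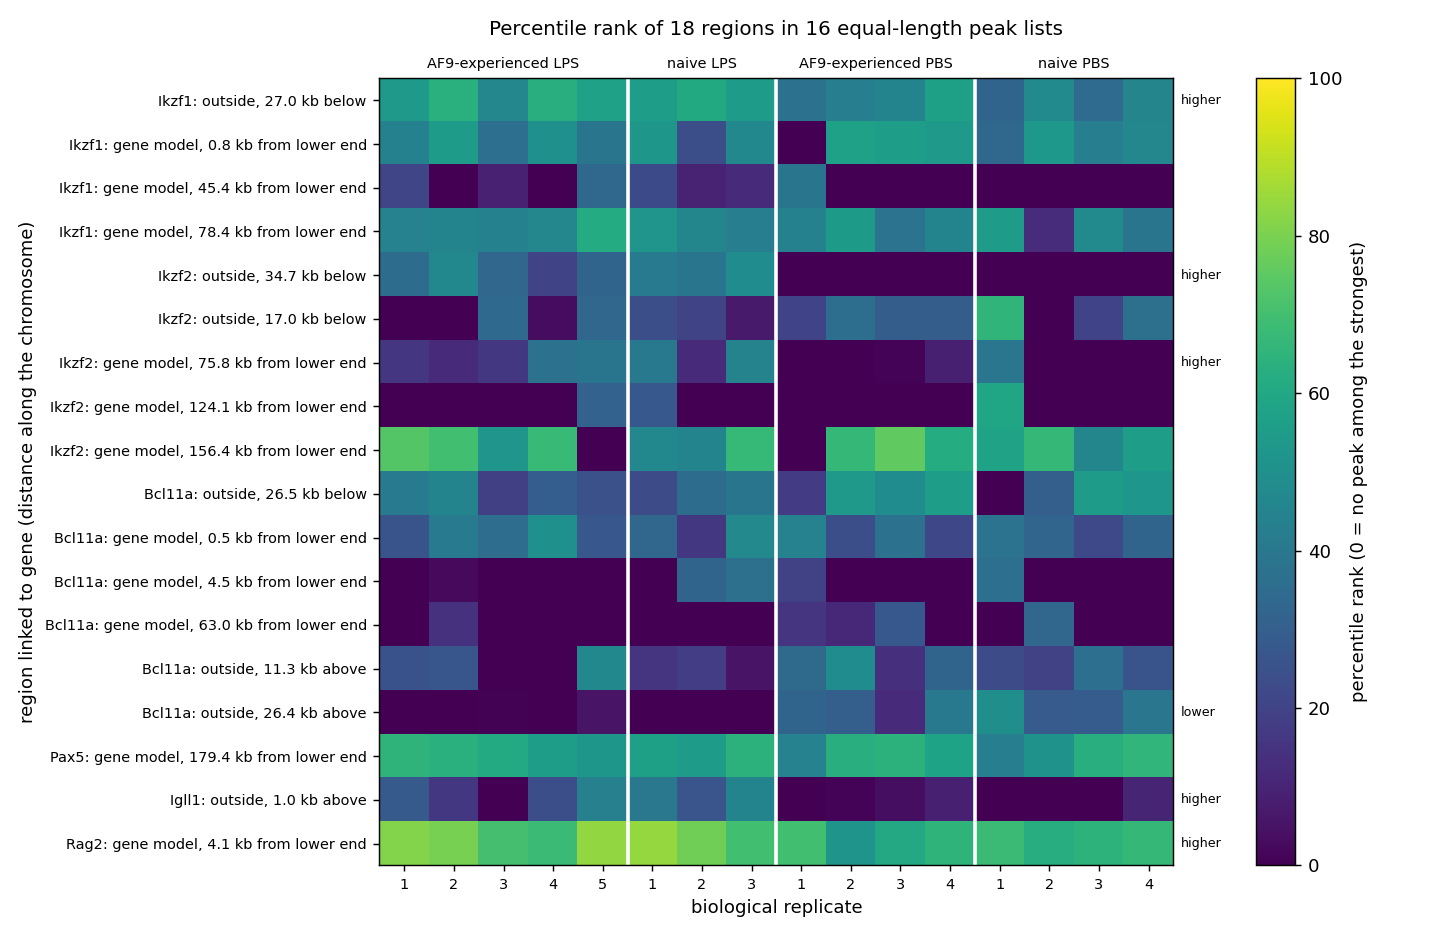
Percentile rank (colour, 0 to 100) of the 18 tested regions (rows) in each of the 16 libraries (columns, by group and replicate). Below and above mean outside the gene model on the side of lower or higher coordinates, and the words at the right mark the 6 regions called between LPS and PBS. The Ikzf2 region 34.7 kb outside its gene model is at 0 in all 8 PBS libraries, and the Pax5 and Rag2 regions have a peak in all 16.

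Helios, encoded by Ikzf2, is the Ikaros relative expressed in haematopoietic stem cells. Its clearest region was 533 bp long and 34.7 kb outside the gene model (chr1:69495965-69496497), in no annotated gene. It ranked at 35.4, 46.7, 33.1, 20.6 and 32.2 in the AF9-experienced LPS libraries and at 41, 39 and 48.7 in the naive LPS libraries, and at 0 in the 4 AF9-experienced PBS and the 4 naive PBS libraries. All 8 LPS libraries thus held it among their strongest peaks and none of the 8 PBS libraries did. The mean difference was 38.2 ± 4.91 percentile points (SE; limma adjusted p = 1.90e-05). It was 42.9 ± 7.38 in naive (limma adjusted p = 0.00224) and 33.6 ± 6.48 in AF9-experienced mice (limma adjusted p = 0.00345). A rank of 0 did not mean that no peak was called: the full lists held a peak there in 8 of 8 LPS and 6 of 8 PBS libraries, and in those 6 it was not among the strongest 19100. The authors' fold enrichment there was 7.58 to 12.9 in the LPS lists and 7.7 to 16.65 in those 6 PBS lists. Fold is not scaled between libraries, so the ranks show a place within a list and not a rise in accessibility. The region entered the test through the LPS lists alone, and with every region tested the limma adjusted p was 1.56e-05. The call in naive mice was lost when peaks were ranked by fold (limma adjusted p = 0.0606), and the calls in naive and in AF9-experienced mice were lost when a peak had to cover 50% of the region (limma adjusted p = 0.369 and 0.153).

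A region of Ikzf2 within the gene model (chr1:69606697-69607372) was also higher after LPS. It ranked at 16, 12.4, 16.3, 37.4 and 38.9 in AF9-experienced LPS, 40.4, 12.4 and 44.7 in naive LPS, 0, 0, 0.783 and 8.6 in AF9-experienced PBS, and 39.2, 0, 0 and 0 in naive PBS. The naive PBS library with the shortest list, replicate 1, overlapped the LPS libraries, and the others lay below them. The difference was 22.3 ± 6.90 (SE; limma adjusted p = 0.0361). The call was lost without any of 9 libraries, namely AF9-experienced LPS 4 or 5, naive LPS 1 or 3, AF9-experienced PBS 2 or 3, or naive PBS 2, 3 or 4, with a limma adjusted p of at most 0.0932, and under 5 other settings, with the filter on low values dropped among them (limma adjusted p = 0.0602 to 0.124). The region over the other end of the Ikzf2 gene model (chr1:69686973-69688176) ranked higher in most libraries, at 52.4 ± 30.4 and 53 ± 12.1 in the 5 AF9-experienced LPS and 3 naive LPS libraries (mean ± SD), and at 51 ± 34.5 and 56.5 ± 8.52 in the 4 AF9-experienced PBS and 4 naive PBS libraries. It differed by −1.03 ± 11.5 between LPS and PBS (SE; limma adjusted p = 0.967).

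Ikaros itself had 4 tested regions. The start region of Ikzf1 (chr11:11684764-11686685), which also covers the start of Gm11999, ranked at 44.9 ± 7.72 and 41.3 ± 15.2 in the 5 AF9-experienced LPS and 3 naive LPS libraries (mean ± SD), and at 41.9 ± 28 and 44 ± 8.27 in the 4 AF9-experienced PBS and 4 naive PBS libraries. Its LPS difference was 0.13 ± 7.34 (SE; limma adjusted p = 0.994). A region 27.9 kb upstream of the start, within Gm11999 (chr11:11656535-11658012), was present in all 16 lists and was higher after LPS. It ranked at 54.3, 63.6, 46.1, 62.9 and 57.1 in AF9-experienced LPS and 56.1, 60.6 and 55.4 in naive LPS, against 37.6, 42.9, 45.1 and 56.8 in AF9-experienced PBS and 32, 47.8, 35.1 and 45.4 in naive PBS. AF9-experienced PBS 4 lay above AF9-experienced LPS 1 and 3 and naive LPS 1 and 3, naive PBS 2 lay above AF9-experienced LPS 3, and the other PBS libraries lay below all LPS libraries. The difference was 14.2 ± 4.42 (SE; limma adjusted p = 0.0365), and it passed the threshold in neither mouse group alone (limma adjusted p = 0.18 in naive, 0.304 in AF9-experienced mice). The call was lost without any of AF9-experienced LPS 2 or 4, naive LPS 1 or 2, AF9-experienced PBS 2 or 3, or naive PBS 3, with a limma adjusted p of at most 0.0945, and under 5 other settings (limma adjusted p = 0.0524 to 0.589).

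The region that fell belongs to Bcl11a, which encodes a repressor that also silences fetal globin in red cell precursors. It lies 26.4 kb outside the far end of the gene model, 119.3 kb downstream of the start and within Gm12066 (chr11:24199957-24201062). It ranked at 0, 0, 0.427, 0 and 5.19 in AF9-experienced LPS and at 0 in the 3 naive LPS libraries. It ranked at 32.1, 30.2, 11.8 and 40.3 in AF9-experienced PBS and at 49.9, 28.7, 29.1 and 39.3 in naive PBS, so every PBS library was above every LPS library. The difference was −32.1 ± 5.24 (SE; limma adjusted p = 0.00026), −36.7 ± 7.87 in naive (limma adjusted p = 0.0104) and −27.5 ± 6.91 in AF9-experienced mice (limma adjusted p = 0.0216). Without AF9-experienced PBS 2 or AF9-experienced PBS 4, this last value no longer passed (limma adjusted p = 0.0625 and 0.0985). Ranking by fold, the 50% rule and Y-chromosome peaks as a covariate also ended the call in naive mice (limma adjusted p = 0.138, 0.362 and 0.108) and in AF9-experienced mice (limma adjusted p = 0.213, 0.288 and 0.0514), and the 50% rule ended that in the mean (limma adjusted p = 0.0537). The region entered the test through the PBS lists, and with every region tested the limma adjusted p in the mean was 0.000313. All 16 full lists held a peak there. The gene-end region of Bcl11a (chr11:24076046-24078149) had a peak in all 16 lists and ranked at 36 ± 10.1 and 32.2 ± 15.4 in the 5 AF9-experienced LPS and 3 naive LPS libraries (mean ± SD), and at 32 ± 10.9 and 31.2 ± 6.66 in the 4 AF9-experienced PBS and 4 naive PBS libraries, with a difference of 2.45 ± 6.01 (SE; limma adjusted p = 0.831).

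Among the B lineage genes, Igll1 had 1 tested region, 958 bp upstream of its start and between Igll1 and Vpreb1, the gene of the partner surrogate chain (chr16:16864943-16865737). It ranked at 28.4, 16.4, 0, 24.1 and 43.4 in AF9-experienced LPS and 39.9, 26.4 and 45.2 in naive LPS, against 0, 0.927, 3.71 and 8.65 in AF9-experienced PBS and 0, 0, 0 and 10.5 in naive PBS. Every LPS library except AF9-experienced LPS 3 was above every PBS library. The difference was 26.8 ± 5.78 (SE; limma adjusted p = 0.00349), with 34.5 ± 8.69 in naive mice (limma adjusted p = 0.0294) and 19.1 ± 7.63 in AF9-experienced mice (limma adjusted p = 0.161). The call in naive mice was lost without any of naive LPS 1, naive LPS 3, naive PBS 2 or naive PBS 3 (limma adjusted p = 0.0757 to 0.101), and under 4 other settings (limma adjusted p = 0.0861 to 0.526). The call in the mean of both differences was lost when peaks were ranked by fold and under the 50% rule (limma adjusted p = 0.0809 and 0.173).

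Pax5 had 1 region of 1538 bp, 5.8 kb downstream of its start (chr4:44703339-44704876). It was among the stronger member regions, with a peak in all 16 lists. Its rank was 59.7 ± 5.15 and 58.8 ± 4.66 in the 5 AF9-experienced LPS and 3 naive LPS libraries (mean ± SD), and 57.5 ± 9.15 and 55.7 ± 10.9 in the 4 AF9-experienced PBS and 4 naive PBS libraries. The LPS difference was 2.57 ± 4.23 (SE; limma adjusted p = 0.74).

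The 1 region assigned to Rag2 (chr2:101628385-101629188) overlaps the gene models of both Rag2 and Iftap. It covers the Iftap start printed above and lies 3.7 kb downstream of the Rag2 start, so the deposited peaks do not assign it to Rag2 alone. It was the highest ranked of the 18 regions, at 81.4, 79.4, 70.4, 68.3 and 83.6 in AF9-experienced LPS and 84.2, 78.2 and 69.7 in naive LPS, against 69.7, 51.7, 60.4 and 65.1 in AF9-experienced PBS and 68.2, 62.2, 64.8 and 66.8 in naive PBS. The groups met between 68.3 and 69.7. The difference was 13.4 ± 3.29 (SE; limma adjusted p = 0.00904). In AF9-experienced mice it was 14.9 ± 4.34 (limma adjusted p = 0.0479), and this call was lost without any of AF9-experienced LPS 1, 2 or 5, naive LPS 2, AF9-experienced PBS 2, 3 or 4, or naive PBS 2, 3 or 4, with a limma adjusted p of at most 0.177, and under 8 other settings (limma adjusted p = 0.0506 to 0.183). The call in the mean was lost under the 50% rule and with Y-chromosome peaks as a covariate (limma adjusted p = 0.135 and 0.163).

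**Figure D2:**
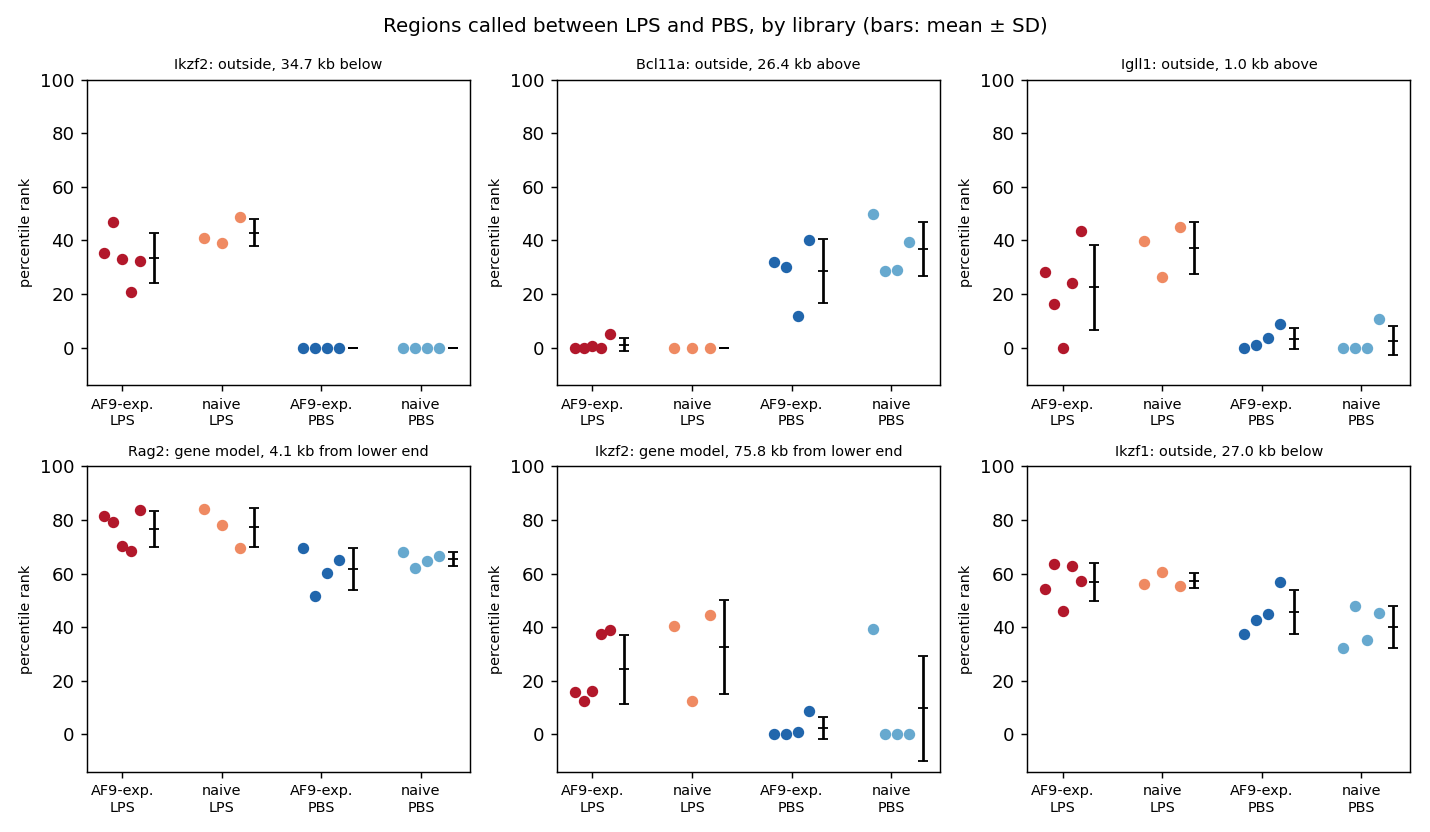
Percentile rank (y axis, 0 to 100) of the 6 called regions in each library, 1 point per library, with the group mean and SD as a black bar at the right of each group. Below and above mean outside the gene model on the side of lower or higher coordinates. The Ikzf2 region 34.7 kb outside the gene model and the Bcl11a region separate the LPS from the PBS libraries completely, and the other 4 panels show overlap. Of all tested regions, 1.9% had every LPS library above every PBS library and 0.807% below.

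Past exposure to MLL-AF9 cells left no called difference at the members. None of the 18 regions passed in AF9-experienced minus naive mice after PBS, after LPS, or in the difference of the LPS responses (limma, adjusted p at least 0.86), where 0.0%, 0.0127% and 0.0% of all regions were called. At an unadjusted p under 0.05 there were 0, 1 and 0 of 18 members, against 3.2%, 5.38% and 2.94% of all regions. The 1 region was at the Bcl11a start (chr11:24080582-24081620), at 0, 2.48, 0, 0 and 0 in AF9-experienced LPS, against 0, 32.4 and 36.8 in naive LPS, a difference of −22.6 ± 8.45 (SE; limma adjusted p = 0.86). The same region was at 19.8, 0, 0 and 0 in AF9-experienced PBS and 36.5, 0, 0 and 0 in naive PBS. Its nonzero values came mostly from the 3 libraries with the shortest lists, with naive LPS 2 and AF9-experienced LPS 2 besides them. These differences ranged from −14.7 to 9.73 percentile points after PBS and from −22.6 to 6.82 after LPS, so they do not show that the groups are alike.

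The longer lists, chosen after the data were seen, brought in weaker regions and the 4 genes without a tested one (5 AF9-experienced LPS, 2 naive LPS, 3 AF9-experienced PBS and 3 naive PBS libraries). Of the 76 regions, 16 belonged to Ikzf1, 15 to Ikzf2, 2 to Ikzf3, 22 to Bcl11a, 4 to Bcl11b, 6 to Ebf1, 7 to Pax5, 2 to Igll1 and 1 each to Rag1 and Rag2. In the mean of both LPS differences 13 were higher and 8 lower (limma). That is 27.6% of the members, where 21.9% of all regions were called, 10.2% higher and 11.7% lower. By gene, 5 of 15 Ikzf2 regions and 3 of 16 Ikzf1 regions were higher and none was lower, while Bcl11a had 2 higher and 5 lower of 22 and Bcl11b 2 lower of 4. Ebf1, Igll1 and Rag2 had 1 higher each, Pax5 had 1 lower, and Ikzf3 and Rag1 had none (smallest limma adjusted p = 0.137 for Ikzf3 and 0.832 for Rag1). Within naive mice 6 were higher and 3 lower, where 6.73% of all regions were called (3.91% higher, 2.82% lower). Within AF9-experienced mice 3 were higher and 6 lower, where 10.5% were called (4.93% higher, 5.53% lower), beside 11.8% of the members in each mouse group. In the mean of both differences, 33 of 76 members had an unadjusted p under 0.05, against 35.6% of all regions. Every LPS library was above every PBS library in 5 members and below in 5, against 4.5% and 5.06% of all regions. With the median fold enrichment of each library as a covariate, the Ikzf2 region 34.6 kb outside the gene model was the 1 region called higher, and none was called lower. In the equal-length lists, where the 3 short lists made the treatments overlap in that measure, the covariate left 4 higher and 1 lower.

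At Ikzf2 the region 34.6 kb outside the gene model, here 632 bp long (chr1:69495965-69496596), ranked at 79.3, 82.9, 78.6, 74.5 and 78.3 in AF9-experienced LPS and 81.1 and 80.5 in naive LPS, against 63.6, 57.1 and 53.7 in AF9-experienced PBS and 42.5, 58.8 and 64.2 in naive PBS. Every library now had a peak there, and every LPS library was above every PBS library (23.1 ± 3.43, SE; limma adjusted p = 0.000193). A region 23.3 kb outside the gene model (chr1:69507483-69507900) ranked at 51.2, 35.4, 36.9, 0 and 29.6 in AF9-experienced LPS and 30.8 and 46.8 in naive LPS, against 0 in all 6 PBS libraries. Only AF9-experienced LPS 4 overlapped the PBS libraries. The difference was 34.7 ± 7.84 (SE; limma adjusted p = 0.00452). This region, too, entered the test through LPS lists alone, and with every region tested its limma adjusted p was 0.00931. A region within the gene model (chr1:69654962-69655755) ranked at 55 to 78.1 in the 7 LPS and at 39.6 to 54.5 in the 6 PBS libraries, without overlap (21.9 ± 4.96, SE; limma adjusted p = 0.00462). With the replicate number as a block, the calls at chr1:69507483-69507900 and chr1:69654962-69655755 were lost (limma adjusted p = 0.0559 and 0.0519). They were also lost with the median fold as a covariate (limma adjusted p = 0.108 and 0.143).

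At Ikzf1, 2 neighbouring intragenic regions were higher after LPS. The region 39.9 kb downstream of the start (chr11:11730049-11730779) ranked at 74.6, 67.2, 70.9, 67.3 and 78.7 in AF9-experienced LPS and 75.2 and 71.1 in naive LPS, against 58.3, 53.7 and 59.7 in AF9-experienced PBS and 48.5, 50.9 and 54.9 in naive PBS. No PBS library reached the LPS libraries, and the difference was 18.1 ± 3.27 (SE; limma adjusted p = 0.000926). The region 38.9 kb downstream (chr11:11729051-11729525) differed by 30.3 ± 8.82 (SE; limma adjusted p = 0.0204) and ranked at 57.3, 67.8, 55.8, 52.4 and 31.2 in AF9-experienced LPS and 61.8 and 59.7 in naive LPS, against 0, 18 and 36.6 in AF9-experienced PBS and 20.2, 21.1 and 63.3 in naive PBS. AF9-experienced LPS 5 lay below AF9-experienced PBS 4, naive PBS 4 lay above every LPS library but AF9-experienced LPS 2, and the call was lost without either naive LPS library, AF9-experienced PBS 2, naive PBS 2 or naive PBS 3 (limma adjusted p at most 0.071).

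At Bcl11a a region that fell lies 15 kb upstream of the start, within A830031A19Rik (chr11:24065377-24065660). This region was at 0 in the 7 LPS libraries, against 39.9, 34.7 and 41.4 in AF9-experienced PBS and 45.7, 46.1 and 25.5 in naive PBS, a difference of −38.9 ± 6.14 (SE; limma adjusted p = 0.000318). It entered the test through the PBS lists alone, and with every region tested the limma adjusted p was 0.000409. Intragenic regions moved both ways. The region 81.4 kb downstream of the start (chr11:24162084-24162799) fell by 37.7 ± 7.90 (SE; limma adjusted p = 0.00272), with ranks of 0 to 24.1 in LPS and 29.3 to 61.4 in PBS libraries. The region 55.3 kb downstream (chr11:24135948-24136636) was higher by 39 ± 9.18 (SE; limma adjusted p = 0.0059), at 54.2, 51.3, 35.4, 0 and 36.6 in AF9-experienced LPS and 56 and 53.1 in naive LPS, against 0, 0 and 4.4 in AF9-experienced PBS and 0, 0 and 31.7 in naive PBS. The overlap came through AF9-experienced LPS 4, which lay below AF9-experienced PBS 4 and naive PBS 4. This region entered the test through the LPS lists, and with every region tested its limma adjusted p was 0.0139. Its call was lost with the replicate number as a block and with the median fold as a covariate (limma adjusted p = 0.0854 and 0.0585).

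**Figure D3:**
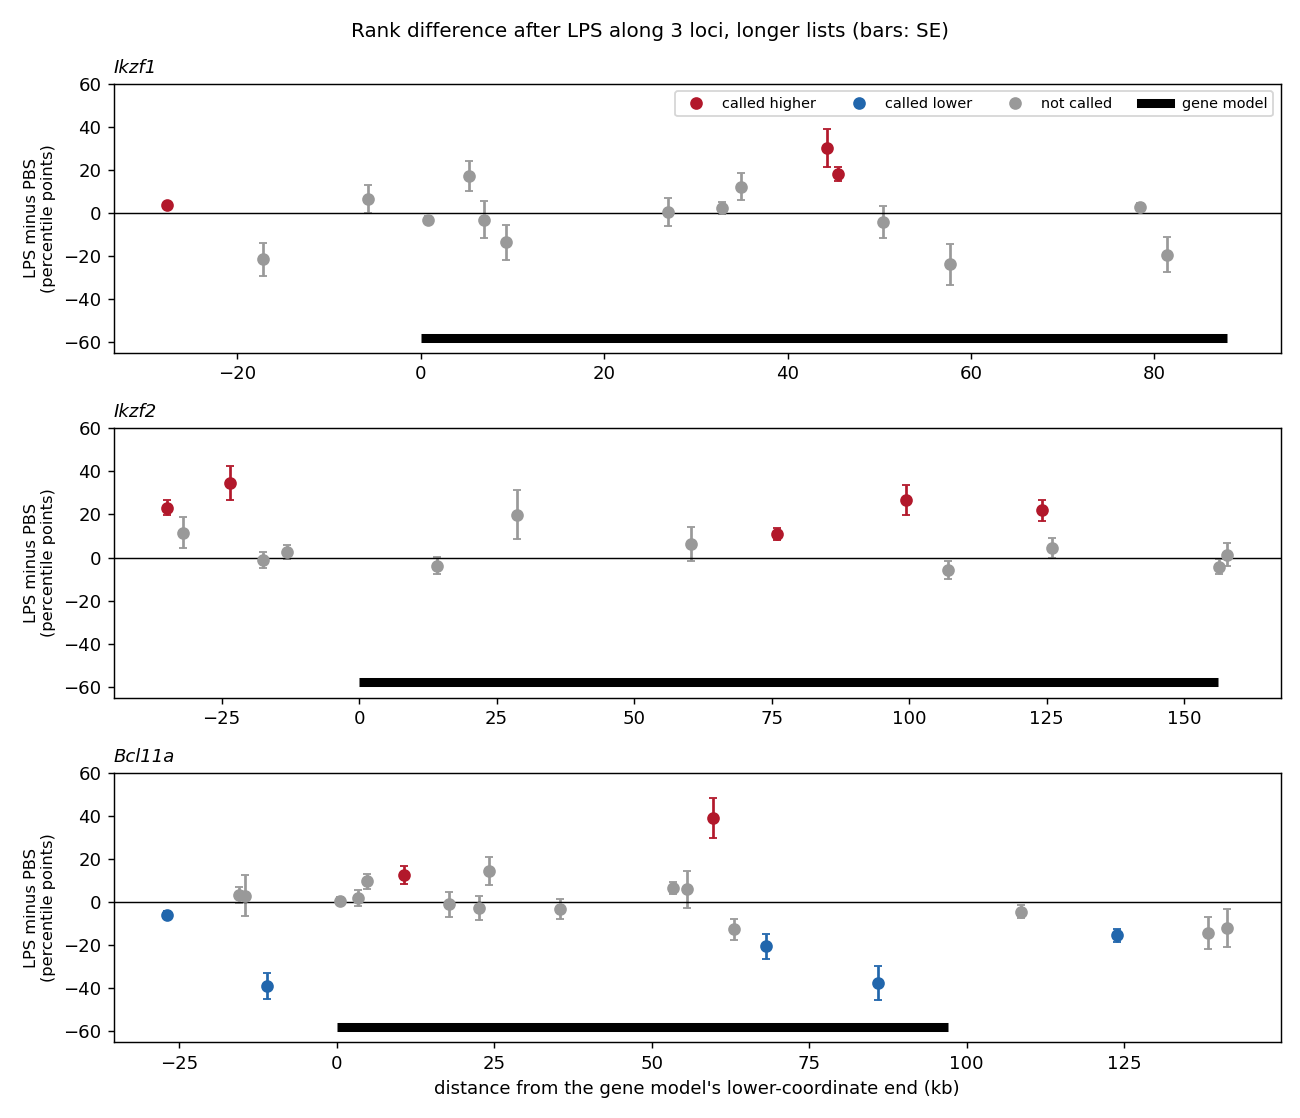
Mean LPS minus PBS difference in percentile points (y axis, bars are SE) for each tested region of the longer lists at Ikzf1, Ikzf2 and Bcl11a, against distance from the lower-coordinate end of the gene model in kb (x axis). The black bar is the gene model, and colour marks regions called higher, lower or not called. Called regions are higher at Ikzf1 (3) and Ikzf2 (5), and both higher (2) and lower (5) at Bcl11a.

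Bcl11b and Pax5 each had a region that was lower after LPS. The Bcl11b region 4.3 kb downstream of its start (chr12:107998822-107999135) ranked at 10.1, 13.1, 0, 0 and 0 in AF9-experienced LPS and 14.6 and 0 in naive LPS, against 49, 52.7 and 43.3 in AF9-experienced PBS and 0, 59.7 and 48.1 in naive PBS, where naive PBS 2 overlapped the LPS libraries. The difference was −36.2 ± 8.89 (SE; limma adjusted p = 0.00778), and with the median fold as a covariate it turned to 8.36 (limma adjusted p = 0.834). A second Bcl11b region 38.2 kb upstream (chr12:108041657-108042174) differed by −21.9 ± 7.69 (SE; limma adjusted p = 0.049). The region over the upstream end of the Bcl11b gene model (chr12:108003823-108004415) differed by −15.1 with every region tested (limma adjusted p = 0.308). The Pax5 region 37.6 kb downstream of its start (chr4:44672115-44673130) was at 0, 0, 0, 0 and 6.69 in AF9-experienced LPS and 0 and 0 in naive LPS, against 27.8, 26.6 and 45.3 in AF9-experienced PBS and 25.5, 34.3 and 34.8 in naive PBS. All PBS libraries were above all LPS libraries, with a difference of −31.7 ± 5.96 (SE; limma adjusted p = 0.00124). This Pax5 region entered the test through the PBS lists. With every region tested its limma adjusted p was 0.00145 in the mean and 0.0522 in naive mice, where the call was lost. With the median fold as a covariate the call in the mean was lost (limma adjusted p = 0.252).

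Ebf1 had a higher region 276.9 kb downstream of its start (chr11:44897092-44897881; 16.8 ± 5.39, SE; limma adjusted p = 0.033). This call was lost without naive LPS 1 or 2, AF9-experienced PBS 2 or 4, or naive PBS 3 or 4 (limma adjusted p at most 0.101), and with no filter on low values (limma adjusted p = 0.0512). The replicate number as a block and the median fold as a covariate also ended it (limma adjusted p = 0.0866 and 0.838). The Ebf1 region 0.7 kb upstream of the start (chr11:44616752-44617398) ranked at 64.7 ± 6.46 in the 5 AF9-experienced LPS libraries (mean ± SD) and at 63.4 and 61.3 in naive LPS, against 55.9 ± 9.97 and 55.9 ± 3.02 in the 3 AF9-experienced PBS and 3 naive PBS libraries (limma adjusted p = 0.203). Aiolos, encoded by Ikzf3, had a region over a gene end (chr11:98545601-98546155) in all 13 lists, at 27.7 ± 13.5 in the 5 AF9-experienced LPS libraries (mean ± SD) and 21 and 10.9 in naive LPS, against 38.4 ± 4.95 and 36.4 ± 8.09 in the 3 AF9-experienced PBS and 3 naive PBS libraries. The Rag1 region 2.9 kb upstream of the start (chr2:101652419-101653360) was at 18, 0, 0, 0 and 0 in AF9-experienced LPS, 0 and 35.1 in naive LPS, 14.6, 0 and 5.37 in AF9-experienced PBS, and 30.4, 17.9 and 8.71 in naive PBS, with overlap between all groups. The region between Igll1 and Vpreb1 was at 67.5 to 81.9 in LPS and 52.1 to 71.3 in PBS libraries (11.3 ± 3.18, SE; limma adjusted p = 0.0167), and this call was lost without naive LPS 1 (limma adjusted p = 0.0816). It was also lost when ranked by fold, with the replicate number as a block and with the median fold as a covariate (limma adjusted p = 0.192, 0.0599 and 0.0943).

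The naive and AF9-experienced LPS differences share no library, but in the longer lists both carry the same split between treatments in median fold enrichment. In these lists 60 of 76 member regions had the same sign in both. Across the 76 regions, which are not independent replicates, the differences had a Pearson correlation of 0.825. Neither value was computed over all regions, so they are not a trait of the members. No member was called in AF9-experienced minus naive mice after PBS or LPS, or in the difference of the responses (limma), where 0.0%, 0.0129% (0.00143% higher, 0.0114% lower) and 0.0% of all regions were called. At an unadjusted p under 0.05 there were 1, 6 and 2 of 76 members, against 3.11%, 6.12% and 3.94% of all regions. The member with the smallest p after LPS was an intragenic Bcl11a region 6.4 kb downstream of the start (chr11:24087141-24087472), at 14.2, 0, 0, 0 and 0 in AF9-experienced LPS, against 30.3 and 21.3 in naive LPS, a difference of −23 ± 5.92 (SE; limma adjusted p = 0.306).

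**Figure D4:**
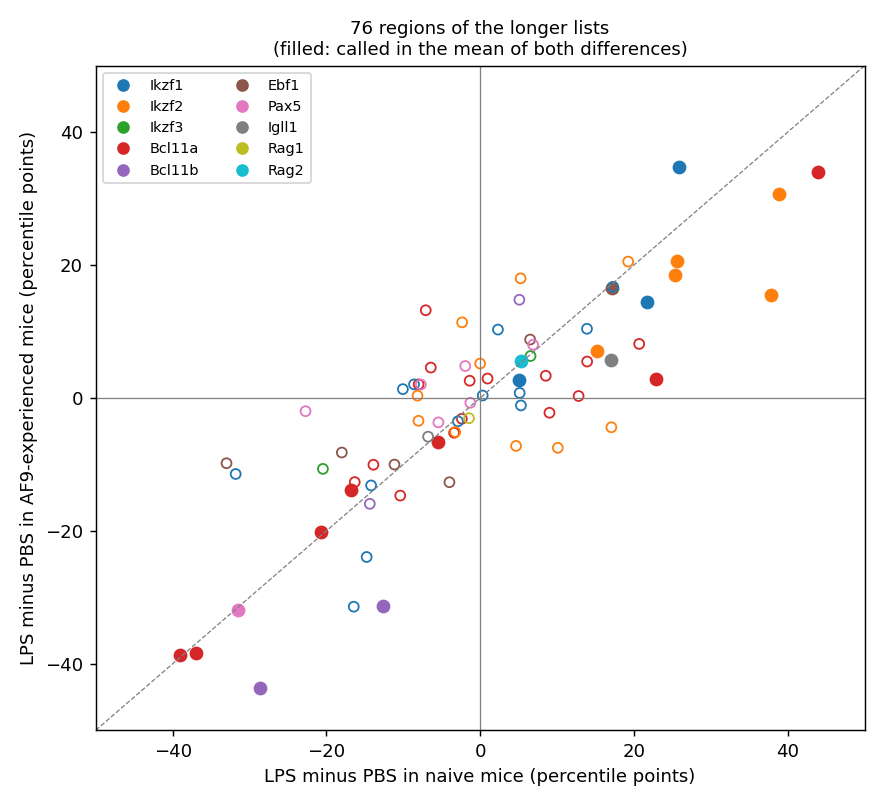
LPS minus PBS difference in percentile points in AF9-experienced mice (y axis) against that in naive mice (x axis) for the 76 member regions of the longer lists, 1 point per region, coloured by gene. Filled points are called in the mean of both differences, the dashed line marks equal differences, and 60 of the 76 points have the same sign on both axes. The share with the same sign over all regions was not computed.

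Other genes of early lymphoid development were described from a list of 22, of which 14 had tested regions in the equal-length lists. Of their 38 regions, none was higher after LPS in the mean of both differences and 6 were lower, at Flt3, Lef1, Mef2c, Notch1 and Tcf7 (limma), with a median difference of −2.93 beside −0.11 over all regions. At an unadjusted p under 0.05, 4 were higher and 9 lower. In the equal-length lists 26.5% of all regions passed that threshold in either direction. The 6 are 15.8% of the 38, where 5.45% of all regions were lower. In the longer lists 7 of their 106 regions were higher and 14 lower, that is 6.6% and 13.2%, near the 10.2% and 11.7% of all regions. The strongest fall in the equal-length lists was 34.9 kb outside Tcf7, which encodes the T lineage factor TCF1 (chr11:52318253-52319142; −31.1 ± 5.26, SE; limma adjusted p = 0.000399). In naive mice, this region averaged 6.6 after LPS and 50.7 after PBS, and in AF9-experienced mice 33.8 after LPS and 51.8 after PBS. A gene-end region of Flt3, the receptor of lymphoid-primed progenitors, was lower by a smaller amount (−7.41 ± 1.74, SE; limma adjusted p = 0.00649). Of 11 genes encoding NuRD subunits, the partners of Ikaros, 10 had 19 regions in the equal-length lists and none was called (limma), with 3 higher and 0 lower at an unadjusted p under 0.05. In the longer lists 7 of their 49 regions were higher, at Chd4, Gatad2a, Mta1 and Mta3, and none was lower (limma). At an unadjusted p under 0.05, 10 were higher and 3 lower, where 35.6% of all regions passed in either direction. The 7 are 14.3% of the 49, where 10.2% of all regions were higher and 11.7% lower.

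The regions whose ranks most resembled the Ikzf2 region 34.7 kb outside the gene model, over the 16 equal-length lists, were linked to Cldn3 (Pearson r = 0.974), Arhgef28 (r = 0.973) and Atf6 (r = 0.969). Over the 13 longer lists they were linked to Fmnl1 (r = 0.979), Tent5c (r = 0.976) and Nmnat2 (r = 0.976). The points of each correlation share their libraries, list lengths and treatment.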

How the data were processed

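ATAC-seq peak lists of 16 biological replicates were used. The labels list 32 samples, 2 technical libraries per replicate, and how these were joined is not given in the sources used here. Library preparation is labelled as Omni-ATAC and also as a Chromium chemistry. Per the submitters' processing notes, which give no versions, the build was GRCm38 and the tools included MACS3, BWA and Trim Galore, with FastQC and Picard. Each deposited list gives, as the authors' own values per peak, a fold enrichment (a ratio of summit to local background), a −log10 p and a −log10 q. None of them is scaled between libraries, so they were used within 1 list at a time. Exceptions are the median fold as a property of a library and the fold printed at 1 Ikzf2 region. Read depth cannot be read from the lists, so no interval for counts was given.

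The shortest list has 19100 autosomal peaks, and every other was reduced to as many by −log10 p. Overlapping peaks gave 31846 merged regions, of which 23554, those found in 3 or more lists, were tested. The value of a region was the percentile rank of the strongest peak in it, so a region can move when others do. Regions were linked to the nearest of 21883 protein-coding gene models of GRCm38.p6 (RefSeq), and 1639 regions were tied between models. A link is by position only. Group means over all 16 lists were fitted with limma 3.58.1 in R 4.3.3 (empirical Bayes, trend and robust), with Benjamini-Hochberg adjustment over all regions. In data simulated for the mean LPS difference over 23554 regions, shifts of 20 and 40 points were called in 48% and 92% of 100 regions each, and 0.0214% of unchanged regions were called. Whether these shares hold for the measured ranks, which stop at 0, was not tested. P-values measure the spread between samples labelled as biological replicates.

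A second fit, added after the data were seen, used 13 libraries at 59600 peaks each (107750 merged and 70009 tested regions). The 10 genes and all lists were chosen with earlier results of these data known, so no p is given for a list. Named regions are each gene's strongest region and gene-end region (within 1 kb of an end), up to 20 called regions by adjusted p, and the smallest p for a gene with none. The second Bcl11b region and the regions of AF9 contrasts were named after their values were seen. Alternatives were ranking by fold, 9550 peaks a list, −log10 q of at least 5, peaks covering 50% of a region, no filter, no short lists, median fold or Y-chromosome peaks as covariates, library weights, a replicate block, and leaving out each library. The labels do not say whether equal replicate numbers mark paired libraries, and the main fit did not pair them.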

Additional observations from a re-analysis of the deposited data

Results flagged for a closer look

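Of 31 groups of 4 or 5 libraries examined at the named regions of the equal-length lists, 6 held 1 library far from the others. The cut-off would flag about 1 in 20 groups of normally distributed values. Ranks stop at 0, so a group with 1 value above 0 is always flagged, and that share does not hold here. The Ikzf1 start region was at 0 in AF9-experienced PBS 1, against 54.1 to 57.4 in the other 3 libraries of the group, and that library has one of the 3 shortest lists. The region over the Ikzf2 gene end (chr1:69686973-69688176) was at 0 in AF9-experienced LPS 5, against 52.1 to 73.1 in the others. In the intragenic Ikzf2 region (chr1:69606697-69607372), naive PBS 1, the shortest list, was at 39.2 where the other 3 were at 0, and AF9-experienced PBS 4 was at 8.6 where the others were at 0 to 0.783. The Igll1 region was at 10.5 in naive PBS 4 and at 0 in the other 3 libraries. The Bcl11a region 26.4 kb outside the gene model was at 5.19 in AF9-experienced LPS 5, against 0 to 0.427 in the others.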

How the results depend on the processing

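In the equal-length lists, 2 regions were higher and 1 lower in naive mice, 2 higher and 1 lower in AF9-experienced mice, and 5 higher and 1 lower in the mean of both. Ranking by fold gave 0 and 0, 1 and 0, and 3 and 2 in that order, and 9550 peaks a list gave 0 and 0, 0 and 0, and 1 and 0. Asking a peak to cover 50% of the region gave 0 and 0, 0 and 0, and 1 and 0. Y-chromosome peaks as a covariate gave 1 and 0 in naive, 1 and 0 in AF9-experienced mice, and 3 higher in the mean. In AF9-experienced mice 1 was higher with −log10 q of at least 5, without the filter on low values, with the median fold as a covariate and with the replicate block. Without the 3 short lists, 1 was higher in naive mice and 2 lower in the mean, and library weights gave 5 higher in naive mice and 2 lower in the mean. Leaving out 1 library gave 1 to 3 higher and 1 lower in naive mice, 1 to 2 higher and 0 to 1 lower in AF9-experienced mice, and 3 to 6 higher and 1 lower in the mean. The Ikzf2 region 34.7 kb outside the gene model kept its call in the mean difference under all 9 other settings that could test it, and without any 1 library (limma adjusted p at most 0.0001 when 1 library was left out), and the Bcl11a region 26.4 kb outside lost it with the 50% rule alone (limma adjusted p = 0.0537). The cause of these losses was not tested. No alternative gave a called member between AF9-experienced and naive mice or in the difference of the LPS responses.

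In the longer lists, 6 higher and 3 lower in naive mice, 3 and 6 in AF9-experienced mice and 13 and 8 in the mean became 11 higher in AF9-experienced mice when ranked by fold. They became 2 and 1 in naive mice with every merged region tested, also chosen after the data were seen, and 0 and 0 in naive mice and 5 higher in the mean with the replicate block. With the median fold as a covariate they became 1 lower in naive mice, 0 and 0 in AF9-experienced mice, and 1 and 0 in the mean. Leaving out 1 library gave 0 to 8 higher and 0 to 3 lower in naive mice, 1 to 5 and 1 to 7 in AF9-experienced mice, and 8 to 14 and 6 to 10 in the mean. Ranked by fold, the Ikzf1 start region turned to 20.7 in AF9-experienced mice and 19.1 in the mean (limma adjusted p = 0.0267 and 0.00956). With the median fold as a covariate, the Bcl11b region near the start (chr12:107998822-107999135) turned to 12.1 in AF9-experienced mice and 8.36 in the mean, and the Bcl11a region 26.5 kb outside the gene model (chr11:24049207-24050031) to 1.67. Same-numbered libraries of different groups had correlations of −0.215 to 0.231 (median −0.0461, 21 pairs). Those with other numbers had −0.302 to 0.241 (median 0.0307, 74 pairs). These values show no pairing but cannot tell that there was none, so the replicate block rests on numbers alone. Ranks fix no absolute accessibility, and the shortest list limits which regions could be tested.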
